A study of Mus musculus with 6 samples.

Results

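Cytosolic ribosomal protein genes were examined in platelet RNA of mice transplanted with MLL-AF9-transformed cells and of their transplanted controls. Every row of the FPKM table (sequenced fragments relative to gene length and to the size of the library) whose symbol has the form Rpl or Rps and a number, with or without a final a, x or l, was taken, together with Rplp0 to Rplp2 and Rpsa. This gave 80 of the 14975 genes, 48 of the large and 32 of the small subunit. GENCODE annotates 78 of them as protein coding and the other 2, Rpl32l and Rps4l, as processed pseudogenes. Pseudogene rows with ps in the symbol and the ribosomal S6 kinases are not among the members. The study asked whether platelets change before leukemia is visible in blood counts, in a model driven by the retroviral MLL-AF9 oncogene. The pre-AML group, labelled AML, came from sub-lethally irradiated C57BL/6 or CD45.1 mice that had received MLL-AF9 cells carrying GFP from primary recipients, with blood taken 1 week after transplantation. The control group, labelled WT, came from mice that had received normal bone marrow. The mice were female and 8 to 12 weeks old. Both groups therefore share irradiation and transplantation, and un-irradiated mice were not analysed here. Platelets had been taken from platelet-rich plasma and freed of cells that carry CD45, the leukocyte antigen, or Ter119, an erythroid one. There were 3 libraries per group, named control 1 to 3 and pre-AML 1 to 3. The design text describes pools of 3 to 4 mice and 2 replicates per group, whereas elsewhere 3 independent mice are given, so it is not settled what animals stand behind a library, and p-values measure the spread between these libraries.

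Ribosomal proteins and ribosomal RNA form the small subunit, which reads the mRNA, and the large subunit, which joins amino acids. Each protein is needed in about equal copy number, and most of these mRNAs begin with a terminal oligopyrimidine (TOP) motif, a C followed by a run of pyrimidines, through which mTORC1 and LARP1 set their translation together. Platelets have no nucleus, so their ribosomal protein mRNAs are inherited from megakaryocytes and decline as the platelet ages. Loss of 1 copy of several of these genes, such as Rps19, Rpl5, Rpl11 and Rpl35a, causes Diamond-Blackfan anemia in human, and loss of RPS14 is a cause of the anemia of the 5q deletion syndrome.

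The TOP motif was looked for at the transcription start sites of the members, since it is the sequence feature by which they are read as a group. RefSeq promoter windows (GRCm38.p6, 250 bases before to 50 after the annotated start) were at hand for 59 members with 71 windows. A run that opens with C and goes on with at least 6 letters that are C or T, beginning within 10 bases of the start, was present in 26 of these windows (36.6%), against 11.1% of all 32851 windows. The 30 bases from 10 before to 20 after the start are given for 6 members described below, with the run in capitals.
Rps6 (chr4:86857348-86857377, minus strand): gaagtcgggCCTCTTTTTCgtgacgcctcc
Rps18 (chr17:33955646-33955675, minus strand): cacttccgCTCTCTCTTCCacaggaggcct
Rpl35a (chr16:33056472-33056501, plus strand): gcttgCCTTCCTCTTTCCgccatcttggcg
Rplp2 (chr7:141447641-141447670, plus strand): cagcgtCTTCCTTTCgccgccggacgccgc
Rpl39 (chrX:37085203-37085232, minus strand): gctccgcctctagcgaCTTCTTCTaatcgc
Rpl31 (chr1:39367841-39367870, plus strand): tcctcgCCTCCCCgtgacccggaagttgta
The letters CGGAAG, searched on both strands, were found in 43 windows of members (60.6%) and in 16.9% of all windows, and AAGATGGC, searched likewise, in 7 (9.86%) and 2.75%. TATAAA, on both strands, was in 7 (9.86%) against 13.6%. These are the cores of the sites of ETS factors, of YY1 and of the TATA-binding protein. CGGAAG read on the other strand is CTTCCG, which can overlap a TOP run. The letters were chosen with the data at hand, and a match is no more than a description of the window. Windows of Rpl17, Rpl21, Rpl23a, Rpl29, Rpl3, Rpl30, Rpl32, Rpl36, Rpl7, Rpl8, Rplp1, Rps14, Rps20, Rps27a, Rps29 and Rps4l were among those not used here.

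The libraries held 11936011 to 17778985 reads on listed genes, as recovered from the FPKM values, of which 52430 to 133141 per library lay on the members. A level of 3 reads on a gene of 2 kb corresponds to 0.0643 to 0.128 FPKM. Platelet markers were abundant in every library, with a summed level over 14 genes of 91382 to 115273 FPKM in the controls and 62823 to 93957 FPKM in the pre-AML libraries, and Itga2b, which encodes a chain of the fibrinogen receptor, was between 1389 and 1778 FPKM. Since this is bulk RNA, fewer cells of a type and less RNA per cell cannot be told apart. Pre-AML 3 stood apart by RNA of leukocytes. The 13 monocyte and macrophage markers other than Lyz2, which was between 2333 and 3093 FPKM in all libraries, summed to 0.634 to 3.03 FPKM in the controls, 5.72 and 7.57 FPKM in pre-AML 1 and 2 and 869.7 FPKM in pre-AML 3, where all 13 were above every control. Cd14 and Ccr2 were listed at 0 in the controls. The 8 B cell markers summed to 1.46 to 1.88, 0.881, 19.6 and 228 FPKM in the same order, with Pax5 listed at 0 in the controls. The 10 T and NK cell markers summed to 19.1 to 28.8 FPKM in the controls and 33.6 to 38.1 FPKM in the pre-AML libraries, the 10 erythroid markers to 2711 to 3113 and 2664 to 3388 FPKM, the 10 neutrophil markers to 2.08 to 2.98 and 1.11 to 3.49 FPKM and the 10 markers of leukemic progenitors to 1.32 to 2.55 and 2.15 to 12.3 FPKM. Of the leukemic progenitor markers, 4 were above every control in pre-AML 3. Cd48 was at 8.69 and Myc at 2.48 FPKM there, whereas Hoxa9, Hoxa10 and Myb were listed at 0. For the tested members together and for several named members, fold changes are given with and without pre-AML 3. Those of the other gene lists are given with all 6 libraries only.

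Levels of the members spread widely, and most lay in the upper part of the table. The mean over the 6 libraries was at least 100 FPKM for 5 members, between 10 and 100 FPKM for 37, between 1 and 10 FPKM for 31 and under 1 FPKM for 7. The median of these means was 11.3 FPKM, against 4.81 FPKM over the 4412 genes that were tested, which had to reach 1 FPKM on average. The large and the small subunit had like medians, 9.89 and 12.5 FPKM. Rpl41, which encodes a very short basic peptide of the large subunit, was highest, with 1235, 1187 and 1122 FPKM in control 1, 2 and 3 and 1373, 1539 and 1096 FPKM in pre-AML 1, 2 and 3. Rplp1, an acidic protein of the stalk that calls translation factors to the ribosome, was next, with 836, 892 and 753 FPKM in control 1, 2 and 3 and 876, 1033 and 777 FPKM in pre-AML 1, 2 and 3. Rplp0, the base of the same stalk, had 419, 405 and 371 FPKM in control 1, 2 and 3 and 389, 415 and 359 FPKM in pre-AML 1, 2 and 3. Rps29, a zinc-binding protein of the small subunit, had 273, 266 and 231 FPKM in control 1, 2 and 3 and 243, 299 and 252 FPKM in pre-AML 1, 2 and 3. Rpl10, which is added late in the assembly of the large subunit, was the fifth, with 121, 111 and 113 FPKM in control 1, 2 and 3 and 105, 107 and 84.7 FPKM in pre-AML 1, 2 and 3. The first 4 of these took 64.4, 64.0 and 70.2% of the members' summed FPKM in control 1, 2 and 3 and 70.8, 71.4 and 58.0% in pre-AML 1, 2 and 3. Among these 5 genes, no library of one overlapped with any library of the next in the order, whereas Rpl10 overlapped with Rpl37a, the sixth, which ran from 70.9 to 118 FPKM. Rplp2, which pairs with Rplp1 in the stalk, was far lower than its partner, at 34.4, 38.4 and 28.6 FPKM in control 1, 2 and 3 and 33.8, 35.3 and 28.7 FPKM in pre-AML 1, 2 and 3.

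**Figure D1:**
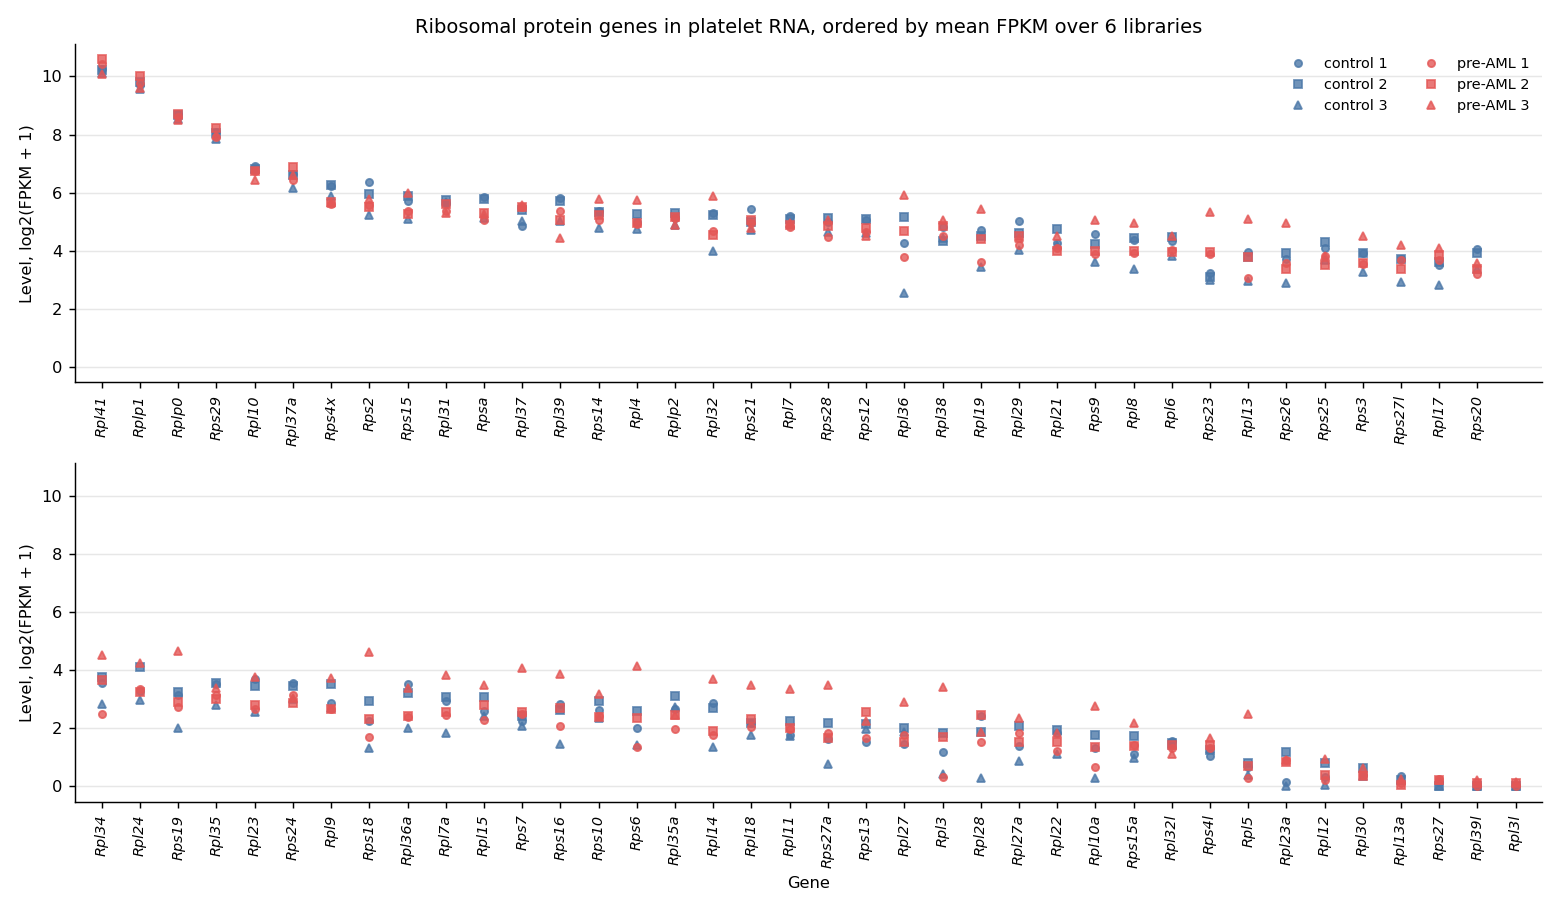
Level of 75 of the 80 members as log2(FPKM + 1), 1 column per gene in order of the mean, with a point for each of the 3 control (blue) and 3 pre-AML (red) libraries. Rpl41, Rplp1, Rplp0 and Rps29 lie apart at the top with little scatter, and in the lower panel pre-AML 3 (red triangle) is often highest and control 3 (blue triangle) often lowest.

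At the lower end, Rpl5, a large subunit protein that with Rpl11 and 5S RNA can bind MDM2, had 0.587, 0.725 and 0.300 FPKM in control 1, 2 and 3 and 0.230, 0.609 and 4.58 FPKM in pre-AML 1, 2 and 3. Rps15a had 1.15, 2.32 and 0.952 FPKM in control 1, 2 and 3 and 1.70, 1.63 and 3.49 FPKM in pre-AML 1, 2 and 3, and Rpl10a had 1.51, 2.40 and 0.207 FPKM in control 1, 2 and 3 and 0.587, 1.55 and 5.82 FPKM in pre-AML 1, 2 and 3. These are the lowest tested protein-coding members, and the libraries of each spread more than the gaps between them. The 7 members under 1 FPKM were not tested. Rps27, a zinc-binding small subunit protein, was listed at 0.112, 0 and 0 FPKM in the controls and at 0.197, 0.174 and 0.168 FPKM in pre-AML 1, 2 and 3. Rpl23a, at the exit of the peptide tunnel, had 0.101, 1.26 and 0 FPKM in control 1, 2 and 3 and 0.887, 0.783 and 0.860 FPKM in pre-AML 1, 2 and 3. Rpl12 of the stalk base had 0.260, 0.731 and 0.0234 FPKM in control 1, 2 and 3 and 0.167, 0.313 and 0.941 FPKM in pre-AML 1, 2 and 3, Rpl30 was between 0.275 and 0.565 FPKM, and Rpl13a between 0.0314 and 0.282 FPKM. Rpl3l, the muscle paralog of Rpl3, was listed at 0 in all controls and pre-AML 1 and came to 2 and 4 reads in pre-AML 2 and 3, and Rpl39l, a paralog of Rpl39 known from testis, to 1 and 3 reads. In reads, Rpl12 came to 1 to 79 per library, and Rps27 to fewer than 5 in each. No fold change is given for these 7.

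Sequence shared with other genes was common among the members. Of the 50-base stretches of the longest transcript, a median of 31.8% occurred in a transcript of another GENCODE gene over the 78 protein-coding members, and 64 of them shared more than 10%, against 11.6% of the 4397 tested genes with a transcript. At least 1 annotated pseudogene shared a stretch with 74 members, with a median of 8 and a maximum of 118 pseudogenes, for Rpl7a. How reads with several matches were counted is not given in the sources used here, so the level of a member, and that of Rpl32l and Rps4l, may be split with its copies. Across the 78 members, which share libraries and length scaling, the Spearman correlation of the mean FPKM was 0.097 with the shared percentage, -0.33 with gene length and 0.19 with GC content. The union of all exons was the length used to recover reads, and for 69 members it gave whole reads in all 6 libraries. It had a median of 1776 bases over the members, whereas their principal transcripts have a median of 882 bases. With reads divided by the principal transcript instead, the first 6 members kept their order and the Spearman correlation with the FPKM order was 0.94. Rps28 moved from rank 23 to 8, Rps14 from 17 to 7 and Rps19 from 43 to 22. Reads of Rps19 were whole in all 6 libraries. Those of Rps28 and Rps14 were whole in only 1 of 6, so the union length was not borne out for them and their new ranks are uncertain.

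Together the members made up a small share of the signal. It came to 0.792, 0.825 and 0.685% of the summed FPKM in control 1, 2 and 3 and 0.764, 0.904 and 1.14% in pre-AML 1, 2 and 3. The mean was 0.767% ± 0.0734 (SD, n = 3) for the controls against 0.936% ± 0.190 (SD, n = 3) for pre-AML, and the groups overlapped, since pre-AML 1 lay below control 1 and 2. As plain sums of FPKM the means were 4039 ± 439 (SD, n = 3) and 4318 ± 268 (SD, n = 3) FPKM, and as a share of recovered reads 0.513% ± 0.0656 (SD, n = 3) and 0.601% ± 0.133 (SD, n = 3). Pre-AML 3 was highest by share but not by summed FPKM, as the library size behind its FPKM values was 1.31 times its recovered reads, against 0.983 to 1.01 in the other libraries. The less abundant members took a larger part of the sum in pre-AML 3 than elsewhere. Without the 4 highest, the other 76 summed to 1525, 1546 and 1054 FPKM in the controls and 1186, 1315 and 1802 FPKM in pre-AML 1, 2 and 3, whereas the 4 highest summed to 2764, 2750.4 and 2478 and 2881, 3285 and 2484 FPKM. Control 3 was lowest and pre-AML 3 highest for the 76 members, whereas control 1 and 2 lay above pre-AML 1 and 2, the opposite order. The small subunit held between 18.5% and 24.9% of the members' FPKM in every library.

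**Figure D2:**
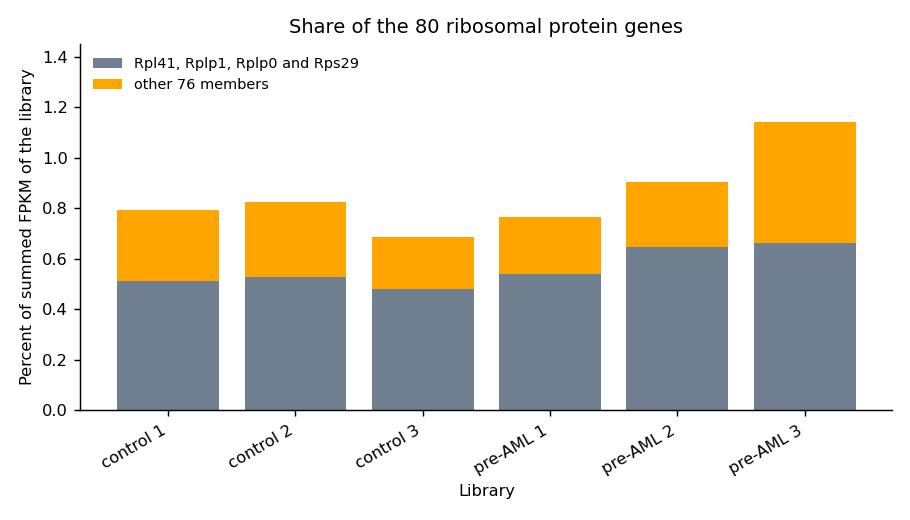
Share of the 80 members in the summed FPKM of each library (bars from 0, in percent), split into the 4 most abundant members (grey) and the other 76 (orange). The orange part is largest in pre-AML 3 and smallest in control 3.

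Between pre-AML and control platelets, none of the 73 tested members passed the threshold. Levels were compared as log2(FPKM + 1) with limma-trend and Benjamini-Hochberg adjustment over all 4412 genes, and 0 members were higher and 0 lower at an adjusted p under 0.05, against 1 gene (0.0227%) higher and 0 (0%) lower among all tested. The smallest adjusted p of a member was 0.522. At an unadjusted p under 0.05, 4 members were higher, which is 5.48% of them against 2.56% of all genes, and 2 were lower, 2.74% against 6.53%. All 3 pre-AML libraries lay above all controls for 6 members (8.22%, all genes 6.14%) and below them for 5 (6.85%, all genes 12.8%), the first share near that of all genes and the second below it. The median log2 fold change was 0.17 over the tested members and -0.055 over all tested genes, and 45 members (61.6%) against 41.5% of all genes had a value above 0. This median depended on pre-AML 3 and control 3. Without pre-AML 3 it was -0.14, with 25 members above 0, and without control 3 it was -0.086, with 32 above 0. At an unadjusted p under 0.05, 4 members were higher and 3 lower without pre-AML 3, beside 169 and 206 of all 4412 genes. Without control 3, 2 members were higher and 9 lower, beside 99 and 197 of all genes. The 7 members under the filter had no test, and a fold change on this scale understates that of genes with a low level.

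**Figure D3:**
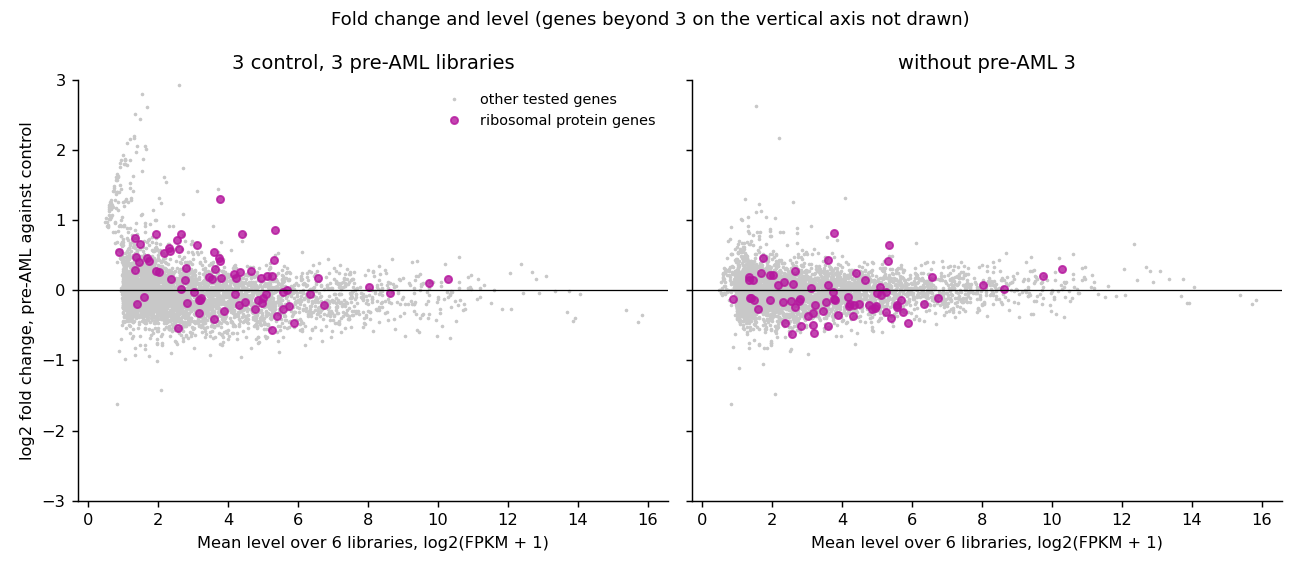
Log2 fold change of pre-AML against control platelets over the mean level, log2(FPKM + 1), for 4412 tested genes (grey) with the 73 tested ribosomal protein genes in purple, from all 6 libraries (left) and without pre-AML 3 (right). The purple points with a low level lie mostly above 0 on the left and around or below 0 on the right. In the left panel 1 gene lies beyond the axis.

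Of the members with a positive fold change, Rps23, Rpl37, Rpl17 and Rps7 were among those with the smallest p, and for all 4 the groups did not overlap. Rps23, a small subunit protein at the decoding site, had 8.40, 7.51 and 7.03 FPKM in control 1, 2 and 3 and 13.8, 14.6 and 39.9 FPKM in pre-AML 1, 2 and 3. Each pre-AML library was above every control, and pre-AML 3 was far above the other 2. The means were 7.64 ± 0.697 FPKM (SD, n = 3) for the controls against 22.8 ± 14.8 FPKM (SD, n = 3) for pre-AML (log2 fold change 1.29 ± 0.35 (SE), limma-trend adjusted p = 0.522). Without pre-AML 3 its log2 fold change was 0.82. Rpl37 had 28.2, 41.5 and 31.8 FPKM in control 1, 2 and 3 and 44.7, 44.7 and 46.2 FPKM in pre-AML 1, 2 and 3. The 3 pre-AML libraries were close together in FPKM, and control 1 lay apart from control 2 (log2 fold change 0.43). Rpl17, which lines the peptide tunnel, had 10.5, 11.4 and 6.14 FPKM in control 1, 2 and 3 and 11.9, 13.4 and 16.1 FPKM in pre-AML 1, 2 and 3, and its low control was control 3 (log2 fold change 0.55). Rps7 had 3.76, 4.30 and 3.25 FPKM in control 1, 2 and 3 and 4.63, 4.93 and 15.9 FPKM in pre-AML 1, 2 and 3, where pre-AML 1 and 2 were just above control 2 and the rest of the difference lay in pre-AML 3. Its log2 fold change of 0.80 became 0.28 without that library. The adjusted p was 0.522 from limma-trend for each of these 4 genes.

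The members with a negative fold change and the smallest p were Rps4x, Rpl35a, Rpl39, Rps20 and Rpl31. Rps4x, the X-linked small subunit gene, had 73.6, 75.3 and 57.6 FPKM in control 1, 2 and 3 and 48.1, 50.2 and 48.9 FPKM in pre-AML 1, 2 and 3. In FPKM the pre-AML libraries were nearly equal and all below control 3. The means were 68.8 ± 9.79 FPKM (SD, n = 3) for the controls against 49.1 ± 1.05 FPKM (SD, n = 3) for pre-AML (log2 fold change -0.47 ± 0.15 (SE), limma-trend adjusted p = 0.522). Per recovered read, pre-AML 3 (1860 of 17778985) lay above control 3 (1117 of 11976397), so the groups overlapped on that scale. Rpl35a, whose start window with a TOP run is printed above, had 5.39, 7.66 and 5.62 FPKM in control 1, 2 and 3 and 2.94, 4.46 and 4.53 FPKM in pre-AML 1, 2 and 3. All 3 pre-AML libraries were below the lowest control in FPKM. The means were 6.22 ± 1.25 FPKM (SD, n = 3) for the controls against 3.98 ± 0.897 FPKM (SD, n = 3) for pre-AML (log2 fold change -0.54 ± 0.19 (SE), limma-trend adjusted p = 0.522). Per recovered read, Rpl35a in pre-AML 3 (373 of 17778985) lay above control 1 (223 of 11936011). With libraries scaled to recovered reads its log2 fold change was -0.43. Rpl31, also shown above, had 49.5, 52.3 and 50.7 FPKM in control 1, 2 and 3 and 40.7, 47.6 and 38.7 FPKM in pre-AML 1, 2 and 3. This was again without overlap in FPKM (log2 fold change -0.26). Per recovered read, Rpl31 in pre-AML 3 (1499 of 17778985) lay above control 1 (966 of 11936011), and the scaled log2 fold change was -0.13. Rpl39, a small protein of the peptide tunnel, had 56.0, 51.5 and 31.8 FPKM in control 1, 2 and 3 and 40.2, 32.5 and 20.9 FPKM in pre-AML 1, 2 and 3. Here pre-AML 1 and 2 lay above control 3, and pre-AML 3 was the lowest of all (log2 fold change -0.57). Rps20, of the head of the small subunit, had 15.8, 14.2 and 9.41 FPKM in control 1, 2 and 3 and 8.23, 9.28 and 11.0 FPKM in pre-AML 1, 2 and 3, with control 3 inside the pre-AML range (log2 fold change -0.41). Rpl10 was without overlap as well, with a log2 fold change of -0.22. These differences kept their sign without any one library and in the other settings tried, at adjusted p from 0.320 to 0.869, none under 0.05.

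**Figure D4:**
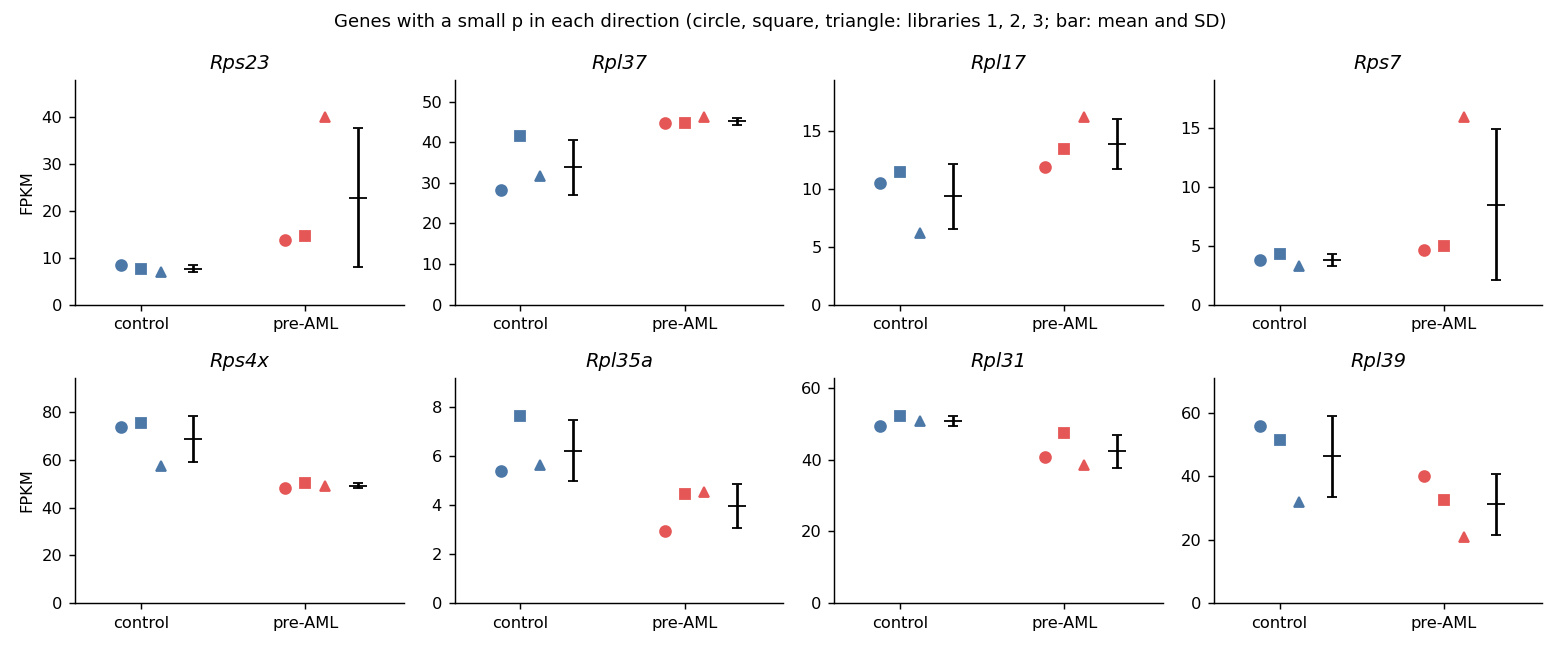
FPKM of Rps23, Rpl37, Rpl17 and Rps7 (upper row) and of Rps4x, Rpl35a, Rpl31 and Rpl39 (lower row), with each library as a point and the mean ± SD (n = 3) beside it. Axes start at 0. For Rps23 and Rps7 pre-AML 3 is far above pre-AML 1 and 2, whereas the pre-AML libraries of Rpl37 and Rps4x lie close together in FPKM.

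The members differed between libraries mostly in the same direction, and by more where their level was lower. The median over the 73 tested members of the log2 difference from the control mean was 0.13, 0.26 and -0.38 in control 1, 2 and 3 and -0.18, -0.027 and 0.55 in pre-AML 1, 2 and 3, while that over all tested genes was 0.013, -0.020 and 0.013 and -0.019, -0.017 and -0.16. Pre-AML 3 was the highest of the 6 libraries for 45 members (61.6%, all genes 18.7%), and control 3 the lowest for 43 (58.9%, all genes 11.9%). For the 24 members with the highest mean, from 26.8 FPKM up, the median difference in pre-AML 3 was -0.078. For the next 24, from 7.52 to 25.8 FPKM, it was 0.78, and for the lowest 25 it was 1.20. The same trend was present over the whole table, where the Spearman correlation of the mean level in the other 5 libraries with the log2 difference of pre-AML 3 from them was -0.45 over 4412 genes, against -0.58 over the 73 members, both from values of the same libraries. In control 3 these medians by class were -0.24, -0.49 and -0.51. Pre-AML 1 was at -0.14, -0.19 and -0.22, and pre-AML 2 at -0.067, -0.13 and 0.13, within the range of the controls in all 3 classes. The library size behind the FPKM values of pre-AML 3 was 1.31 times its recovered reads. Its medians by class are therefore lower in FPKM than they would be per recovered read, a scale on which they were not computed. In pre-AML 3, 16 members were at least 2-fold above the highest of the other 5 libraries, which held for 5.28% of all tested genes. The leukocyte markers listed above were higher in the same library, and their part in the level of the members was not tested. In control 3, where the members were lowest, the platelet, erythroid, neutrophil, B cell, T and NK cell and leukemic progenitor sums were all the lowest of the 3 controls, and the monocyte and macrophage sum without Lyz2 lay between those of control 1 and 2.

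**Figure D5:**
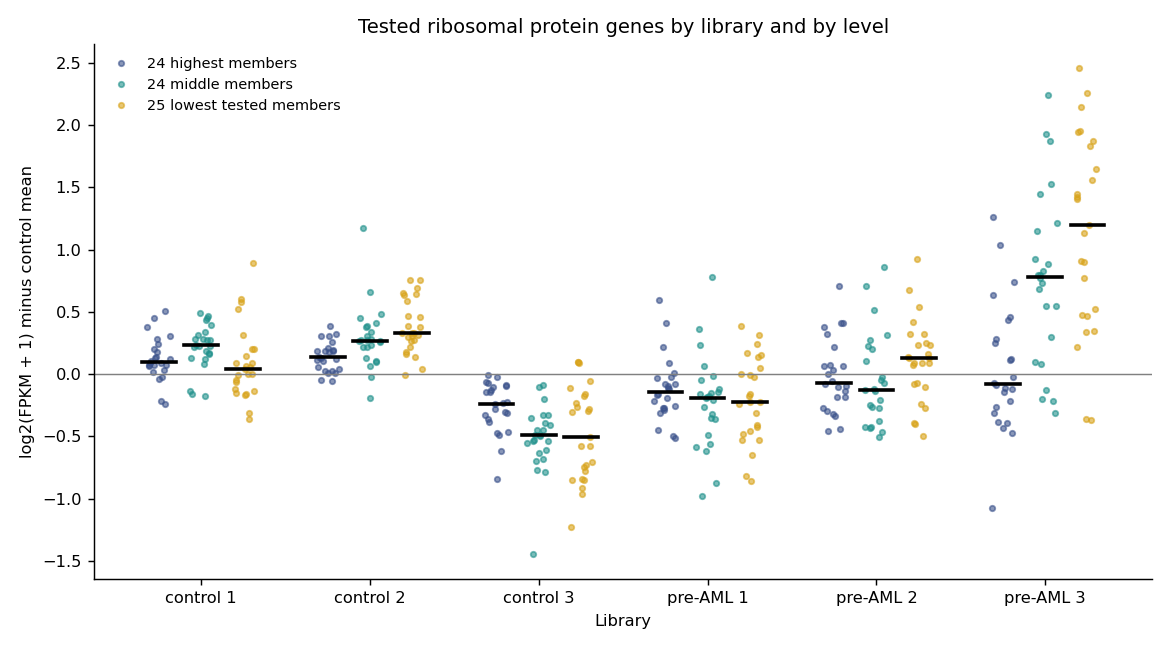
Difference of log2(FPKM + 1) from the mean of the 3 controls for the 73 tested members (points) in each library, in classes of 24, 24 and 25 members from the highest (blue) to the lowest mean level (yellow), with black bars at the medians. In pre-AML 3 the medians of the middle and lowest classes are at 0.78 and 1.20 and that of the highest at -0.078, and in control 3 all 3 medians are below 0.

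The widest ranges over the libraries were those of Rps18, Rpl36 and Rpl3. Rps18, which sits in the head of the small subunit where the subunits meet, had 3.79, 6.60 and 1.50 FPKM in control 1, 2 and 3 and 2.23, 4.04 and 23.7 FPKM in pre-AML 1, 2 and 3. Pre-AML 3 was several times above every other library, and without it the log2 fold change went from 0.71 to -0.16. Rpl36 had 18.2, 34.9 and 4.83 FPKM in control 1, 2 and 3 and 12.8, 24.9 and 59.4 FPKM in pre-AML 1, 2 and 3, with the lowest level in control 3 and the highest in pre-AML 3. Rpl3, of the core at the catalytic center, had 1.29, 2.60 and 0.344 FPKM in control 1, 2 and 3 and 0.260, 2.23 and 9.68 FPKM in pre-AML 1, 2 and 3, where pre-AML 1 was lowest and pre-AML 3 highest, so that both ends of the range were pre-AML libraries. Rps6, the substrate of the S6 kinases downstream of mTORC1, had 3.01, 5.06 and 1.70 FPKM in control 1, 2 and 3 and 1.56, 4.05 and 16.8 FPKM in pre-AML 1, 2 and 3, and its log2 fold change of 0.61 turned to -0.16 without pre-AML 3. The same turn was seen for Rpl5, from 0.54 to -0.12, for Rpl3, from 0.66 to -0.14, and for Rpl10a, from 0.48 to -0.11. Of the Diamond-Blackfan genes named above, Rpl5 was highest in pre-AML 3. Rpl35a had 4.53 FPKM there, below every control in FPKM though not per recovered read. Rps19 and Rpl11, of the same disease and chosen after their values were seen, had 24.3 and 9.23 FPKM in pre-AML 3. In the other libraries they had at most 8.45 and 3.71 FPKM. Rps14, of the 5q deletion syndrome and likewise chosen after its values were seen, had 40.0, 39.7 and 26.4 FPKM in control 1, 2 and 3 and 32.2, 36.3 and 54.5 FPKM in pre-AML 1, 2 and 3, with control 3 lowest and pre-AML 3 highest. Rpsa, the laminin receptor protein of the small subunit, went the other way, with 57.3, 53.8 and 33.7 FPKM in control 1, 2 and 3 and 32.7, 38.7 and 37.6 FPKM in pre-AML 1, 2 and 3 and a log2 fold change of -0.37, and its highest libraries were control 1 and 2.

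The stalk genes, Rps29 and Rpl41 varied less between libraries than most members. Over the 6 libraries the coefficient of variation was 6.21% for Rplp0, 9.16% for Rps29, 11.6% for Rplp1, 11.6% for Rplp2 and 13.4% for Rpl41. By level the median was 17.8% over the 24 highest, 39.3% over the next 24 and 59.0% over the lowest 25 tested members. It was 34.2% over all tested members and 19.4% over all tested genes, and within the 3 controls alone it was 27.7% and 14.8%. The 3 stalk genes had log2 fold changes of -0.039 for Rplp0, 0.11 for Rplp1 and -0.046 for Rplp2, where limma-trend gave adjusted p-values of 0.918, 0.776 and 0.922, and the sign of each changed in at least 2 of the other settings. Rpl41 was at 0.16 (limma-trend adjusted p = 0.655) and Rps29 at 0.040. In FPKM, the differences in these genes were smaller than the spread of the pre-AML libraries. With libraries scaled to recovered reads the log2 fold changes were 0.30 for Rpl41, 0.24 for Rplp1, 0.093 for Rplp0 and 0.082 for Rplp2. Limma-trend gave adjusted p-values of 0.382, 0.438, 0.671 and 0.786 for them. Per recovered read, Rpl41 was higher in each pre-AML library than in every control.

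Paralogs and pseudogenes stood beside the main genes. Rps27l, the paralog of Rps27 that p53 can induce, was far above Rps27 in every library, with 12.3, 12.3 and 6.59 FPKM in control 1, 2 and 3 and 12.0, 9.50 and 17.3 FPKM in pre-AML 1, 2 and 3, at a log2 fold change of 0.30 (limma-trend adjusted p = 0.653). Rps27 shared 27.6% of its 50-base stretches with other genes and Rps27l 13.7%. The processed pseudogenes Rps4l, with 1.08, 1.36 and 1.43 FPKM in control 1, 2 and 3 and 1.51, 1.69 and 2.18 FPKM in pre-AML 1, 2 and 3, and Rpl32l, with 1.92, 1.78 and 1.68 FPKM in control 1, 2 and 3 and 1.51, 1.66 and 1.18 FPKM in pre-AML 1, 2 and 3, did not overlap between groups, in opposite directions. Rpl32l rested on 9, 10 and 8 reads in control 1, 2 and 3 and 8, 10 and 11 reads in pre-AML 1, 2 and 3, so its groups differed by the library size in FPKM and overlapped in reads. Rps4l rested on 12 to 18 reads in the controls and 19 to 48 in pre-AML libraries. Outside the rule, Rpl22l1, the paralog of Rpl22, had 10.3, 5.13 and 4.80 FPKM in control 1, 2 and 3 and 2.94, 3.19 and 4.30 FPKM in pre-AML 1, 2 and 3. Its groups did not overlap in FPKM, and the log2 fold change was -0.74 (limma-trend adjusted p = 0.522), whereas Rpl22 was at -0.10. Of the ribosomal proteins with other symbols, Fau, which encodes RPS30 fused to a ubiquitin-like protein, had 164, 168 and 154 FPKM in control 1, 2 and 3 and 186, 201 and 183 FPKM in pre-AML 1, 2 and 3, above all controls in each pre-AML library (log2 fold change 0.23, limma-trend adjusted p = 0.526). Rps3a1 had 32.2 ± 5.78 FPKM (SD, n = 3) for the controls against 30.1 ± 4.43 FPKM (SD, n = 3) for pre-AML. Of the 5 tested rows of this kind, 0 passed the threshold in either direction.

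Genes that make, use or watch over ribosomes were compared in the same fit, and in each of these lists 0 genes passed the threshold, higher or lower. Of 77 mitochondrial ribosomal protein genes, 30 were tested, with a median log2 fold change of 0.014, and of 66 translation initiation and elongation factors 38 were tested, with a median of -0.055. Their medians in pre-AML 3 were -0.026 and -0.016 on the log2 scale, against 0.55 for the members. Pre-AML 3 was the highest library for 9 (30%) and 14 genes (36.8%), against 18.7% of all tested genes and 61.6% of the members. Among 20 tested genes other than the members, listed by name as carrying a TOP motif, the median log2 fold change was -0.094, with -0.14 in pre-AML 3. The list includes Gas5 and Snhg1, and the motif was not looked for gene by gene. Tpt1, an abundant TOP mRNA, had 166, 158 and 134 FPKM in control 1, 2 and 3 and 130.4, 116 and 68.8 FPKM in pre-AML 1, 2 and 3, all pre-AML libraries below all controls (log2 fold change -0.58, limma-trend adjusted p = 0.522). Eef1b2, of the elongation factor that reloads eEF1A, was at -0.43, and Eef1a1 itself had 276 ± 27.4 FPKM (SD, n = 3) for the controls against 241 ± 10.7 FPKM (SD, n = 3) for pre-AML. Eif3h, of the initiation factor eIF3, was higher still, with 381 ± 32.8 FPKM (SD, n = 3) for the controls against 346 ± 74.5 FPKM (SD, n = 3) for pre-AML. Vim, the intermediate filament vimentin, was at 1.42, with 2.86 to 6.27 FPKM in the controls and 8.60, 9.32 and 27.2 FPKM in pre-AML 1, 2 and 3. Npm1, which helps assemble ribosomes, was at 0.75, with 0.568 to 1.25 FPKM in the controls and 0.874, 2.31 and 4.49 FPKM in pre-AML 1, 2 and 3.

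Only 8 of 56 genes of ribosome assembly, a process of the nucleolus, had a mean of at least 1 FPKM, with a median log2 fold change of 0.15. Their median log2 difference from the control mean was -0.0014, 0.034 and 0.31 in pre-AML 1, 2 and 3. Nop10 had 11.0 ± 1.22 FPKM (SD, n = 3) for the controls against 9.68 ± 0.396 FPKM (SD, n = 3) for pre-AML, and Sbds, which frees new large subunits for translation, 5.14 ± 0.923 FPKM (SD, n = 3) for the controls against 4.97 ± 0.339 FPKM (SD, n = 3) for pre-AML. Nhp2 and Eif6 were at 0.85 and 0.49, with 3.85 and 4.43 FPKM in pre-AML 3 and at most 1.10 and 1.96 FPKM in the other libraries. Of 16 genes of mTORC1 and its control of TOP mRNAs, 5 were tested. Eif4ebp1, the repressor of cap-dependent initiation that mTORC1 inactivates, was abundant, with 142, 166 and 172 FPKM in control 1, 2 and 3 and 194, 189 and 154 FPKM in pre-AML 1, 2 and 3 (log2 fold change 0.16). Tsc2 was at -0.11, Rps6kb2, an S6 kinase, at 0.15, Rheb at -0.31 and the cap-binding Eif4e at -0.22. Of 18 listed genes for rescue of stalled ribosomes, 5 were tested, all with values below 0 and a median of -0.079. Of all tested genes 41.5% had a value above 0, and their median of -0.055 was close to that of this list. Rnf10, a ubiquitin ligase of stalled small subunits, had 90.0 ± 6.50 FPKM (SD, n = 3) for the controls against 85.5 ± 11.1 FPKM (SD, n = 3) for pre-AML, Edf1, a sensor of collided ribosomes, 15.0 ± 2.13 FPKM (SD, n = 3) for the controls against 14.0 ± 0.712 FPKM (SD, n = 3) for pre-AML, and Gtpbp2 was at -0.099. Free ribosomal proteins can stabilize p53, and of 12 genes of p53 and its targets 8 were tested, with a median of 0.18. The median log2 difference of these 8 from the control mean was 0.077, 0.13 and 0.36 in pre-AML 1, 2 and 3. Cdkn1a had 6.55, 10.9 and 12.9 FPKM in control 1, 2 and 3 and 10.4, 13.8 and 22.1 FPKM in pre-AML 1, 2 and 3, and Phlda3 35.1, 49.0 and 54.3 FPKM in control 1, 2 and 3 and 57.4, 55.7 and 57.8 FPKM in pre-AML 1, 2 and 3, above all controls in each pre-AML library but close to control 3. Trp53 was at 0.54, with 0.548 to 0.668 FPKM in the controls and 0.948, 0.770 and 2.65 FPKM in pre-AML 1, 2 and 3. Ccng1 was at -0.28 and Trp53inp1 at -0.42. The adjusted p of these 5 genes lay between 0.522 and 0.584 from limma-trend.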

How the data were processed

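Platelet poly(A) RNA of 3 control and 3 pre-AML libraries had been amplified with SMART-Seq2 and barcoded with Nextera XT. STAR, DESeq2 and mm10 are named in the submitters' processing notes. The authors deposited a table of FPKM values for 14975 genes and 6 libraries. The counting program and annotation are not given in the sources used here. The members and gene lists were chosen with earlier results of these data known. FPKM values are not counts, so log2(FPKM + 1) was tested for 4412 genes whose mean reached 1 FPKM, with limma-trend (limma 3.58.1, R 4.3.3), two-sided, without covariates, with Benjamini-Hochberg adjustment over all of them and a threshold of 0.05. The test was checked on simulated data, in which all genes had the same spread setting and no library stood apart. That check cannot show how the test performs on the members. With union exon lengths of GENCODE release M21 (GRCm38), found for 14911 genes, values under 1000 reads were whole within 0.05 for 83.1% to 83.7% in each library, and reads were recovered as estimates. Depth sets the precision of low genes only through these reads. Named members were the 5 with the smallest p in each direction, the 5 highest and 5 lowest tested, the 3 with the widest range, those below the filter, paralogs, the stalk genes, Rps6 and Rpsa. Some genes under these rules are not reported here. Of each pathway list the 2 with the smallest p in each direction and the 2 highest were named. Rpl7a, Rpl11, Rpl22, Rps14, Rps19 and Rps28 were chosen after their values were seen. Other scalings, filters, pseudocounts, a replicate block, leaving out each library, removing trends with gene length and GC content (loess) and limma-voom on recovered reads were tried. Scaling to recovered reads and levels per principal transcript were added after seeing the data. Promoter windows are from RefSeq (GRCm38.p6). Python 3.11.15 with pandas 2.3.3 and numpy 2.4.6 was used.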

Additional observations from a re-analysis of the deposited data

How the results depend on the processing

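In all 17 alternatives to the gene test, 0 members had an adjusted p under 0.05, and the lowest adjusted p of a named member was 0.211. At an unadjusted p under 0.05, 4 members were higher and 2 lower, beside 113 and 288 of all genes. The replicate block gave 2 and 3 (all genes 118 and 254), equal sums of FPKM 6 and 0 (275 and 194), the median of ratios over tested genes 5 and 1 (234 and 251), limma-voom on recovered reads 5 and 0 (230 and 267), and scaling to recovered reads, added after seeing the data, 5 and 0 (252 and 257). Leaving out 1 library gave 2 to 7 higher and 0 to 9 lower. Equal sums of FPKM moved the median of all genes from -0.055 to 0.081, the genes above 0 from 41.5% to 62.4% and the members above 0 from 61.6% to 78.1%. The median log2 fold change of the members was -0.14 to 0.33 without 1 library and 0.074 to 0.34 in the other settings, below 0 only without control 3 or pre-AML 3. It was 0.081 once trends over GC content and gene length were removed. Of the 27 named tested members, 18 kept their sign in every alternative. Same-numbered libraries did not deviate together (correlations -0.043, -0.12, -0.17 for numbers 1, 2 and 3), so the number was not used as pairing. The members' share of FPKM was 0.767% and 0.936% in control and pre-AML platelets, 1.65% and 1.83% with hemoglobin genes and the 10 highest genes left out of the total, 0.513% and 0.601% of recovered reads, and 0.738% to 0.808% and 0.834% to 1.02% without 1 library.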
